A study of Mus musculus with 2 samples.

Results

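The natural killer receptor gene complex was described here as the protein-coding genes of mouse chromosome 6 whose symbol starts with Klr or Clec2, taken from GENCODE M21 on the mm10 build. The rule used gene names and no measured value, and it chose 32 of 21938 protein-coding genes. Accessibility was measured by DNase-seq, in which the enzyme DNase I cuts open chromatin, in the thymus of 25-day-old B6CASTF1/J females, 2 libraries in all. B6CASTF1/J animals are F1 hybrids with a C57BL/6J and a CAST parent, so each carries 1 genome of either strain, and the labels name no treatment. Both libraries belonged to 1 group and are called replicates 1 and 2 after the biological replicate numbers of the labels. The labels name separate thymus samples under a single donor record, so the spread between them may not be that between unrelated animals. Nothing was contrasted, and values are given for both libraries.

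The complex encodes C-type lectin-like receptors that natural killer (NK) cells and some T cells use to read the surface of other cells. In mice the Ly49 receptors (Klra genes) mostly recognise classical MHC class I molecules, and CD94 (Klrd1) pairs with NKG2 chains (Klrc genes) to read the non-classical molecule Qa-1. Several NKR-P1 receptors (Klrb1 genes) instead bind the lectin-like products of Clec2 genes, which lie between them, so receptor and ligand are inherited together. Killer receptors are known from innate-like and some memory T cells as well as NK cells, while the thymus is filled mostly by developing T cells.

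Genes less than 1 Mb from their neighbour were joined into blocks, and 29 of the 32 fell in 1 block of 2638 kb, at chr6:128609227-131247362. Klrg2 and Clec2l lay together far to the left of it, and Klrg1 stood alone between. The stretch from the first to the last gene of the rule is therefore 92.6 Mb long, at chr6:38625693-131247362, and held 4903 peaks in replicate 1 and 2520 in replicate 2, or 52.9 and 27.2 per Mb. Most of that stretch belongs to other genes, so the block is the unit of what follows.

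The tissue was checked on marker genes. Of all protein-coding genes, 61.7% had a peak within 1 kb of their start in replicate 1 and 55.1% in replicate 2. All 12 T lineage markers had one in both libraries. Of 12 NK cell markers 8 and 7 did, or 66.7% and 58.3%, near the share of all genes, and 4 of them, Ncr1, Gzmb, Xcl1 and Ccl5, had none in either library. Of markers of other cells, 3 and 2 of 6 B cell, 4 and 3 of 8 myeloid, 2 and 2 of 6 erythroid, 2 and 1 of 6 thymic epithelial and 5 and 4 of 6 stromal genes had one. The longer peak list of replicate 1 held 127552 peaks and that of replicate 2 held 67270. The number of reads behind each library is unknown.

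Sequences of the sites on which the account turns are given first, on the plus strand of mm10, 5′ to 3′. They are the densest block peak of replicate 1, upstream of Klrb1b (chr6:128839601-128839780), the peak before the Clec2d start (chr6:129180421-129180600) and the part of the Klrd1 peak that precedes its first base (chr6:129591601-129591781). Capitals mark the letters TGTGGT, a short RUNX core, and AGGAAG, a short ETS core, on either strand.
Klrb1b upstream site: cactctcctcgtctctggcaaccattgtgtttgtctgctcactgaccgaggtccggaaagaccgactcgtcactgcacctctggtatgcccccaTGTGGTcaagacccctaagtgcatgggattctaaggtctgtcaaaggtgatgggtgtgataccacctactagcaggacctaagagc
Clec2d upstream site: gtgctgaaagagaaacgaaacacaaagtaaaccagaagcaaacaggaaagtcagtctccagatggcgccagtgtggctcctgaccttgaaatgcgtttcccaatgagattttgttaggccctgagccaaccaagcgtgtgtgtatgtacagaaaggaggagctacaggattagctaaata
Klrd1 upstream site: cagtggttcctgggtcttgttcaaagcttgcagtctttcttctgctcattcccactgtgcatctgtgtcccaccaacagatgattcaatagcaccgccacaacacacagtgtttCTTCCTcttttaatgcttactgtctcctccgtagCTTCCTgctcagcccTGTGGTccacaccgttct
The Klrb1b site held 1 RUNX match, which overlapped a deposited footprint (a short run of bases cut less than its surroundings) in both libraries. The Klrd1 site held 1 RUNX and 2 ETS matches, and of these 3 matches 0 lay in a footprint in replicate 1 and 1 in replicate 2. The Clec2d site held neither. A match is a description of letters and shows no binding.

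Few of the genes had an accessible promoter. A promoter was the 1 kb on either side of the 5′ end of the gene record, 2001 bases in all, and it counted as open when 1 base or more of a deposited peak fell in it. In replicate 1, 7 of 32 genes were open (21.9%, 95% Wilson interval 11.0 to 38.8), against 61.7% of all protein-coding genes. In replicate 2, 4 of 32 were open (12.5%, 4.97 to 28.1), against 55.1% of all. The mean was 5.5 genes (SD 2.12, n = 2). The 4 genes open in both libraries were Klrb1c, Clec2i, Clec2d and Klrd1, where 54.4% of all genes were open in both. Klrg2, Clec2l and Klra1 were open in replicate 1 alone. The intervals cover counting error only. With the denser 50% of each peak list, Clec2i and Clec2d alone were open, 2 genes in either library. The thymus is a mixture, and a site open in few cells cannot be told apart here from one weakly open in many.

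The remaining 25 genes had no peak within 1 kb in either library, and none of them had a single base there with a false discovery rate (FDR) below 0.05. An FDR base is one that the authors' per-base test of cutting called. Over all genes, 62.7% had such a promoter base in replicate 1 and 56.3% in replicate 2, and among the 32 genes the counts were again 7 and 4. Footprints gave the same counts, 7 and 4, where 59.7% and 54.0% of all genes had 1 or more. By family, 1 and 0 of 11 Ly49 genes were open in replicates 1 and 2. For the 5 NKR-P1 genes the counts were 1 and 1, for the 6 Clec2 genes 3 and 2, for the 5 NKG2 and CD94 genes 1 and 1, for the 3 KLRE and KLRI genes 0 and 0, and for the 2 KLRG genes 1 and 0.

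**Figure D1:**
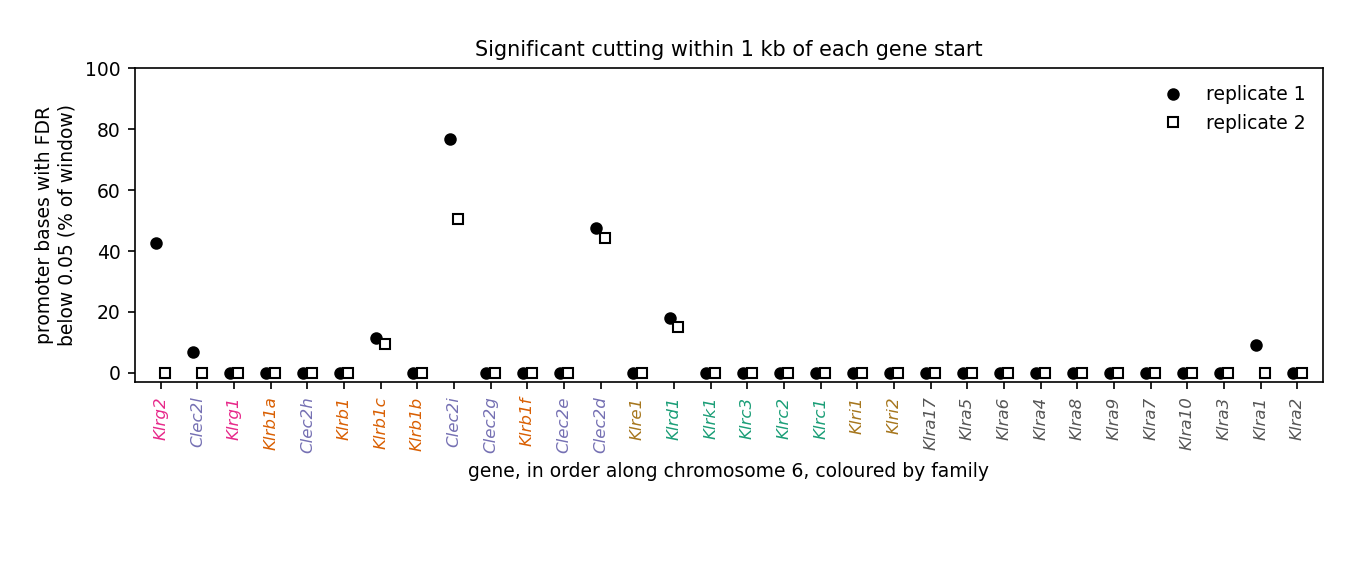
Share of the 2001 promoter bases with an FDR below 0.05 (vertical axis, percent) for each of the 32 genes in order along chromosome 6, with filled circles for replicate 1 and open squares for replicate 2 and names coloured by family. Clec2i and Clec2d stand highest in both libraries, and 25 genes lie at 0 in both.

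The 2 promoters with the strongest signal belonged to ligand genes, not receptor genes. Clec2i, which encodes the lectin-like ligand Clr-g, had a peak of density 6.18 in replicate 1 and 4.14 in replicate 2. Density is the authors' signal per peak, of unstated scale, so its percentile within each library's own list is given beside it: 89.0 and 83.4. The middle of that peak lay 7.5 bp before the gene start in replicate 1 and 17.5 bp before it in replicate 2. Of the 2001 promoter bases 1536 and 1008 were FDR bases, with 10 and 5 footprints. FDR bases thus covered 76.8% of the Clec2i promoter in replicate 1 and 50.4% in replicate 2.

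Clec2d encodes Clr-b, the ligand of the inhibitory receptor NKR-P1B that many blood cells display. Its peak had density 7.33 in replicate 1 and 4.58 in replicate 2, at percentiles 90.7 and 84.8. FDR bases numbered 954 and 886, and 8 footprints were listed in each library. The densest promoter peak of an open gene lay at a median percentile of 92.8 and 87.4 over all genes, so these ligand promoters lay below the median of all open promoters. Open genes with as few CpG as the block genes, a set described below, had medians of 72.9 and 69.8. Both ligand promoters lay above these. Their partner receptor genes differed: Klrb1b, which encodes NKR-P1B, and Klrb1f, which encodes the Clr-g receptor NKR-P1F, had no promoter peak in either library. For Klrb1f this depends on the start used: with any annotated transcript start it was open in both libraries.

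The open receptor promoters were weaker. Klrd1, which encodes CD94, the shared chain of the NKG2 receptors, had a peak of density 0.714 in replicate 1 and 0.714 in replicate 2, at percentiles 45.4 and 39.6, centred 81.5 and 111.5 bp before its start. It had 358 and 299 FDR bases and 1 and 4 footprints. Klrb1c encodes NKR-P1C, the activating receptor used as an NK cell marker in C57BL/6 mice. Its peak, of density 0.434 and 0.696 at percentiles 28.1 and 38.5, lay 718.5 and 709.5 bp before the start, and 229 and 188 promoter bases were FDR bases. Both genes were thus open in both libraries, with peaks in the lower part of each list.

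Klrg2, Clec2l and Klra1 rested on faint peaks of 1 library. Klrg2 had 3 promoter peaks in replicate 1, the densest at 0.360, with 856 FDR bases, and 0 peaks and 0 FDR bases in replicate 2. Clec2l, whose product is known from brain and whose promoter was the richest of the 32 in CpG with 29, had 1 peak of density 0.291 and 136 FDR bases in replicate 1. Klra1, which encodes the inhibitory receptor Ly49A, had 1 peak of density 0.270 centred 88 bp before its start and 181 FDR bases, and its nearest peak in replicate 2 was 357034 bp away. The shorter deposited peak list of replicate 1 held neither the Clec2l nor the Klra1 peak, and replicate 2 had no promoter peak at any of the 3 genes.

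Every gene of the NKG2 and CD94 family other than Klrd1 lacked a promoter peak. Klrk1 encodes NKG2D, an activating receptor for stress-induced ligands, and its nearest peak lay 15224 bp from its start in replicate 1 and 15204 bp in replicate 2. Klrc1, which encodes the inhibitory chain NKG2A, came closest: a peak of density 0.629 and 0.738 lay 1508 and 1528 bp from its start, just outside the window. Just inside it lay the Klrb1c peak, whose nearer edge was 606 and 616 bp from the start. For Klrc2 and Klrc3, the NKG2C and NKG2E genes, the nearest peaks lay 19792 and 34697 bp away in replicate 1 and 19812 and 34677 bp away in replicate 2.

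Klrc2 and Klrc3 share most of the sequence around their starts, which bears on whether reads can be placed there. The reads' length is not given in the sources used here, and words of 31 bases served as a stand-in: 12.5% of those in the Klrc2 promoter and 15.2% of those in the Klrc3 promoter occur once in the reference genome, the lowest values among the 32 genes. Over all protein-coding genes the median was 98.3%, and over the 32 it was 84.7%. Matching stretches of 150 bases are shown on the minus strand, chr6:129643528-129643677 before Klrc3 and chr6:129660795-129660944 before Klrc2, with the differing bases in capitals.
Klrc3: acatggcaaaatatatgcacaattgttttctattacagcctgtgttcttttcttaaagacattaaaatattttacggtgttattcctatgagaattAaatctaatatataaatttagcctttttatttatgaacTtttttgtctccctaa
Klrc2: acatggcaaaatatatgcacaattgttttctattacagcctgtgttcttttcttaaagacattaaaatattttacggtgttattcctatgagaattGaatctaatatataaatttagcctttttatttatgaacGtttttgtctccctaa
They differed at 2 bases. The match sits farther from the Klrc3 start than from the Klrc2 start, and the 250 bases before each start were 48.4% identical. Among the 55 pairs of Ly49 genes those 250 bases were 40.7% to 84.5% identical, with a median of 48.4%. The most alike pair was Klra4 and Klra8. It is shown on the minus strand by the 150 bases before Klra4 (chr6:130067272-130067421) and the matching stretch before Klra8 (chr6:130129900-130130049), with the 19 differing bases in capitals. Klra4 encodes Ly49D and Klra8 encodes Ly49H, the activating receptor known for the response to mouse cytomegalovirus.
Klra4: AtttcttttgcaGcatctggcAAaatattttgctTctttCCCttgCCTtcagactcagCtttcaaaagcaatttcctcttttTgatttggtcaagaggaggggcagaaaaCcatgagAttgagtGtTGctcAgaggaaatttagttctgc
Klra8: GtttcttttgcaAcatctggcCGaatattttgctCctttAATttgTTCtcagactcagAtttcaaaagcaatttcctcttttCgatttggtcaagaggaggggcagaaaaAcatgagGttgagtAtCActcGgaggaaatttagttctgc
Neither of these promoters had a peak in either library. In the Klra8 promoter 43.5% of words occurred once, against 70.0% for Klra4.

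Among the 29 genes in whose promoters most words occurred once, 7 and 4 were open, the same genes as among all 32. The genes left out, Klrc2, Klrc3 and Klra8, were closed, so the open genes could not change. Closed promoters with nearly all words single included Klrk1 at 99.9%, Klrc1 at 100%, Klrg1 at 100% and Klrb1b at 98.6%. Clec2d, with 68.4%, and Clec2i, with 78.8%, were open. The part of read placement in the closed Ly49 promoters was not tested, and neither was that of the CAST genome, which is not the reference.

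**Figure D2:**
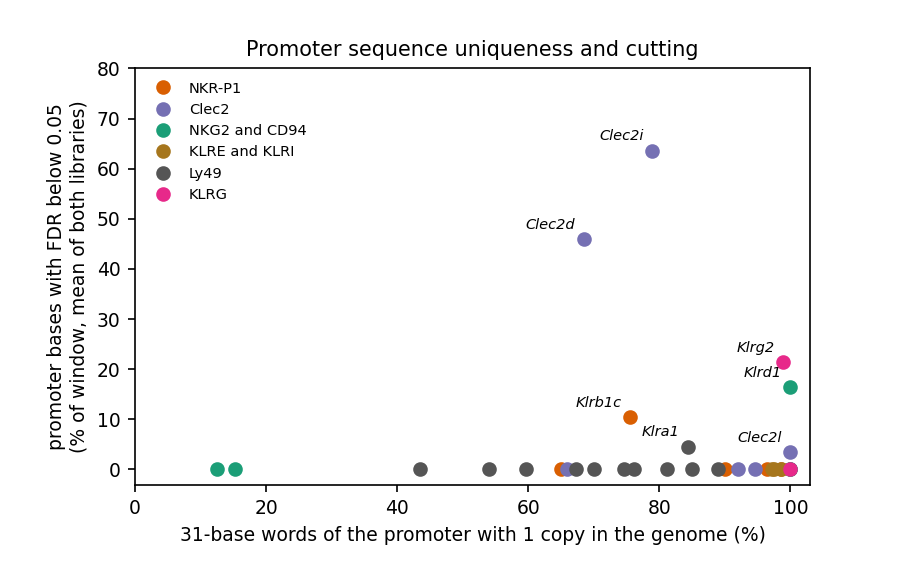
Share of promoter words of 31 bases found once in the genome (horizontal axis, percent) against the share of promoter bases with an FDR below 0.05 (vertical axis, percent, mean of both libraries), 1 point per gene, coloured by family. Points at 0 run from 12.5% to 100% of single words, and Clec2i and Clec2d lie high at 78.8% and 68.4%.

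The promoters were also poor in CpG, the dinucleotide that fills many constantly active promoters. In the 300 bases from 250 before to 50 after the start, the median was 2 CpG for the 32 genes and 11 for all genes, with a GC content of 40.3% against 55.0%. The block genes had at most 7. Of the 9085 protein-coding genes with no more than that, a limit set after the values were seen, 23.8% were open in replicate 1 and 17.7% in replicate 2. The 29 block genes, with 5 and 4 open, stood at 17.2% and 13.8%, near that background. The Gimap genes, another immune family on chromosome 6, had a median of 4 CpG, and 8 and 7 of 8 were open.

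The 10 short motifs were searched in the same 300 bases on both strands. The E-box letters CANCTG occurred in 23 of 32 promoters (71.9%), against 49.5% of all promoters, and the RUNX letters TGTGGT in 9 (28.1%), against 15.3%. The AP-1 letters TGANTCA occurred in 8 (25.0% against 6.91%) and the T-box letters GGTGTG in 10 (31.2% against 19.6%). The ETS letters AGGAAG were in 13 (40.6% against 34.6%), the TCF and LEF letters CTTTGA in 8 (25.0% against 15.8%), the STAT letters TTCNNNGAA in 4 (12.5% against 8.39%) and the GATA letters AGATAA in 2 (6.25% against 10.2%). The NFIL3 letters TTANGTAA and the CTCF consensus were in 0 of 32, against 2.12% and 0.556% of all promoters. Klrd1 held 6 of these motifs, RUNX, TCF and LEF, ETS, T-box, E-box and AP-1, while Clec2i and Clec2d held the E-box alone. RUNX and T-box matches may share bases, since the letters of 1 can run into the other.

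With promoter peaks included, the block was far from closed, and its open sites were gathered at 1 end. The 2638 kb held 132 peaks in replicate 1 and 68 in replicate 2, or 50.04 and 25.8 per Mb, against 46.9 and 23.5 per Mb on chromosome 6, a ratio of 1.07 and 1.10. Of the 132 peaks, 74 lay in the 577 kb from Klrb1a to Clec2d that hold the NKR-P1 and most Clec2 genes, as did 44 of the 68. That was 128 and 76.2 peaks per Mb, 2.73 and 3.25 times the value of chromosome 6. A further 41 and 20 peaks lay in the gap between Clec2d and Klre1, which holds none of the genes chosen by name. In the NKR-P1 and Clec2 segment, FDR bases made up 4.85% and 2.52% of the sequence, against 1.59% and 0.782% of the chromosome.

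The Ly49 segment, from Klra17 to Klra1, showed the reverse. Its 556 kb and 10 genes held 4 peaks in replicate 1 and 1 in replicate 2, or 7.20 and 1.80 per Mb, and 0.0853% and 0.0148% of its bases were FDR bases. All of these peaks were faint, the densest at 0.280 and 0.270, and the 1 peak of replicate 2 lay upstream of Klra6 at the place of a replicate 1 peak. The shorter deposited lists and the denser 50% of each longer list held 0 peaks in the Ly49 segment. The 832 kb between Klra1 and Klra2 held 6 and 0 peaks, and the Klra2 gene itself 0 and 0. The 163 kb of the NKG2 segment, from Klre1 to Klri2, held 5 and 3 peaks, or 30.8 and 18.5 per Mb, all at densities below 1. In both libraries the order of the 3 gene segments was NKR-P1 and Clec2, then NKG2, then Ly49.

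Single words made up 71.1% of the NKR-P1 and Clec2 segment, 75.2% of the NKG2 segment, 62.7% of the Ly49 segment and 48.4% of the stretch between Klra1 and Klra2. The value was 84.4% for chromosome 6, read at every 50th position. Among the gene segments, Ly49 had the fewest single words and also the fewest peaks per Mb. NKG2 had the most single words, and NKR-P1 and Clec2 the most peaks per Mb. The part of read placement in the low Ly49 counts was not tested. None of the stretches holds an assembly gap.

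**Figure D3:**
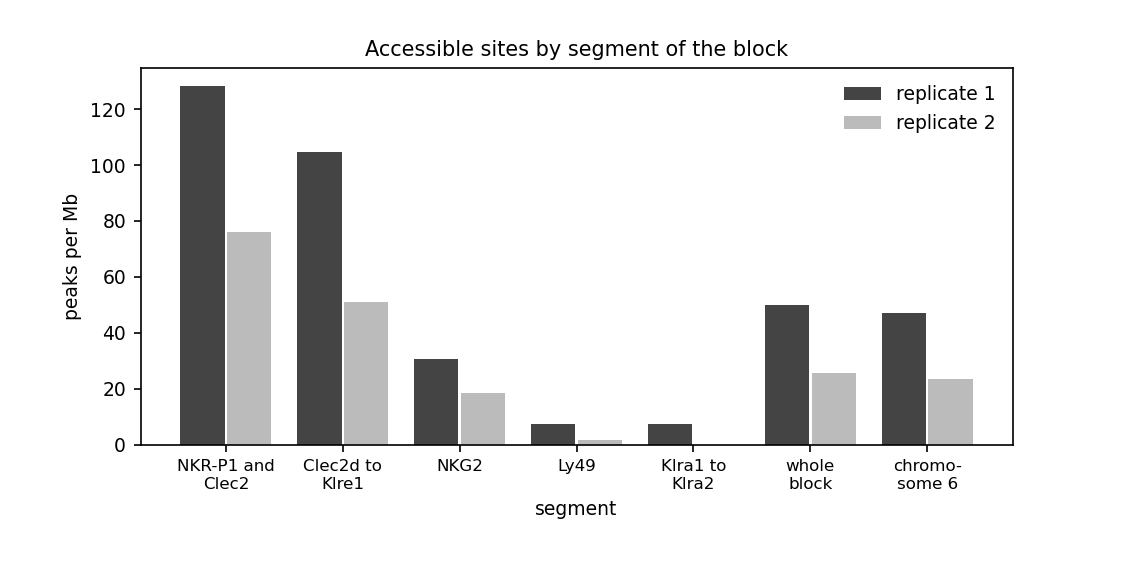
Peaks per Mb (vertical axis) in segments of the block, in the whole block and on chromosome 6, with dark bars for replicate 1 and light bars for replicate 2. The NKR-P1 and Clec2 segment reaches 128 and 76.2 per Mb and the Ly49 segment 7.20 and 1.80.

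Peaks gathered between particular genes. Of the 28 stretches between neighbouring starts in the block, 11 had no peak in either library and 20 had at most 2 in replicate 1. The 37.1 kb between the starts of Klrb1c and Klrb1b held 13 peaks in replicate 1 and 10 in replicate 2. The 61.3 kb from Klrb1b to Clec2i held 18 and 15, and the 66.2 kb from Klrb1 to Klrb1c held 17 and 7. From Klra4 to Klra3, by contrast, all 5 stretches held 0 peaks in both libraries.

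Counted over the gene body with a 10 kb margin at both ends, the 3 genes with the most peaks were Klrb1c with 12 and 5, Klrg2 with 10 and 7 and Clec2i with 10 and 5. These counts ignore density, and the replicate 2 peak nearest the Klrg2 start, 5295 bp away, had a density of only 0.0780. Klrb1b had 6 and 3 peaks, with no promoter peak. Klrb1f also had 6 and 3, and its promoter was open only where every annotated transcript start was counted. The median over the 32 genes was 1 and 0 peaks, against 4 and 2 over all protein-coding genes. At least 1 such peak was found for 17 and 13 of the 32, where 82.5% and 74.0% of all genes had 1 or more.

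**Figure D4:**
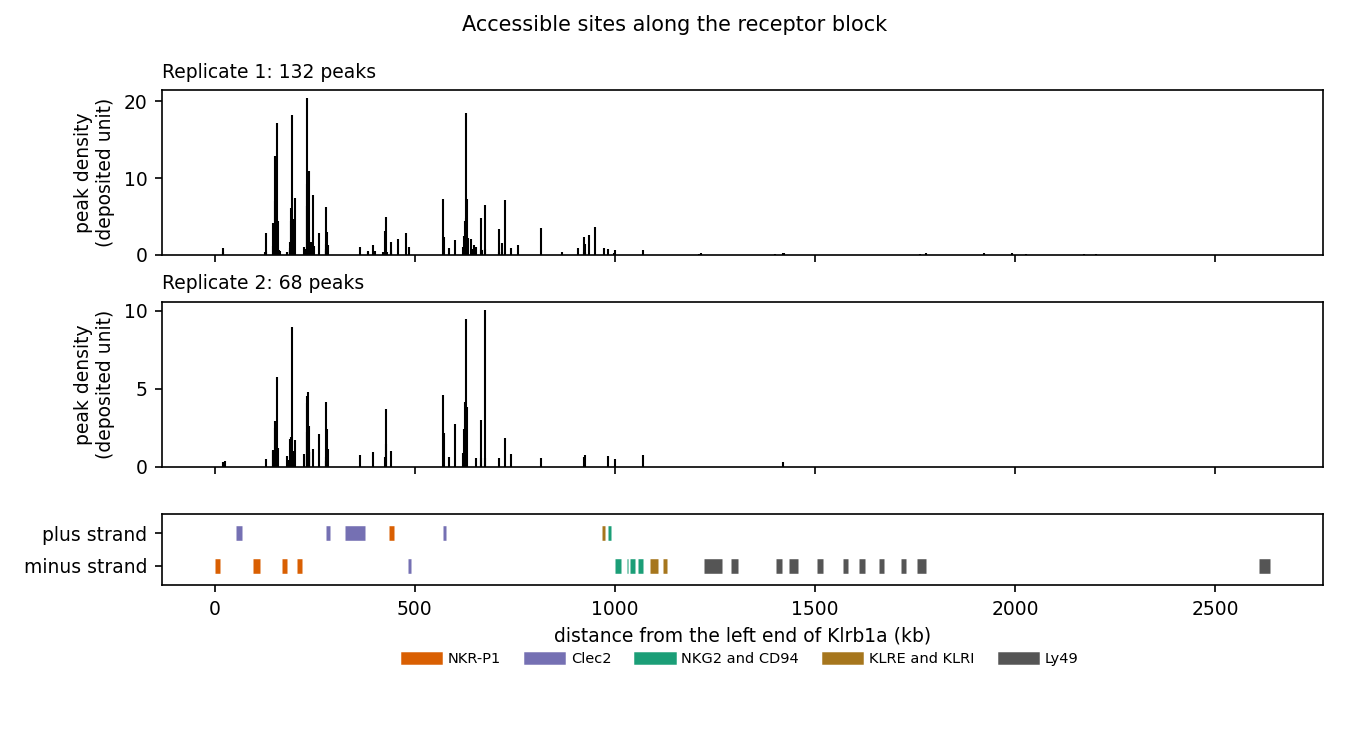
Density of every peak of the block (vertical axes, deposited unit, a separate scale per library) by its distance from the left end of Klrb1a (horizontal axis, kb), with the 29 genes drawn below by strand and family. Tall lines crowd among the NKR-P1 and Clec2 genes and just beyond them, and almost none stands over the Ly49 genes.

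The 8 densest sites of the block by mean percentile lay around NKR-P1 genes, at Clec2d and near Cd69. The site upstream of Klrb1b, whose sequence is given above, had density 20.4 in replicate 1, the highest of the block there, and 4.56 in replicate 2. It lies 13359 bp before the Klrb1b start, in intergenic DNA. Beside it lay chr6:128843121-128843380, with 9.72 and 4.76 at 16919 bp before Klrb1b, and chr6:128838921-128839140, with 9.19 and 4.10 at 12699 bp.

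Klrb1c was flanked on both sides. A site 14035 bp before its start (chr6:128803201-128803300), inside an intron of the predicted gene Gm44511, had density 18.1 and 8.97. A site 24945 bp beyond its start (chr6:128764161-128764380), in intergenic DNA past the gene's end, had 17.1 and 5.75. The remaining 3 were the Clec2d promoter, described above, and a pair in the gap between Clec2d and Klre1. Of that pair, chr6:129237961-129238160 had 18.5 and 9.49 and lay 57445 bp beyond the Clec2d start. Its nearest protein-coding start was that of Cd69, an early activation gene of lymphocytes, 37376 bp away. The other, chr6:129284501-129284700, had 6.53 and 10.1 and lay 9164 bp before the Cd69 start. Against these, the Klrb1c promoter peak itself had 0.434 and 0.696.

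**Figure D5:**
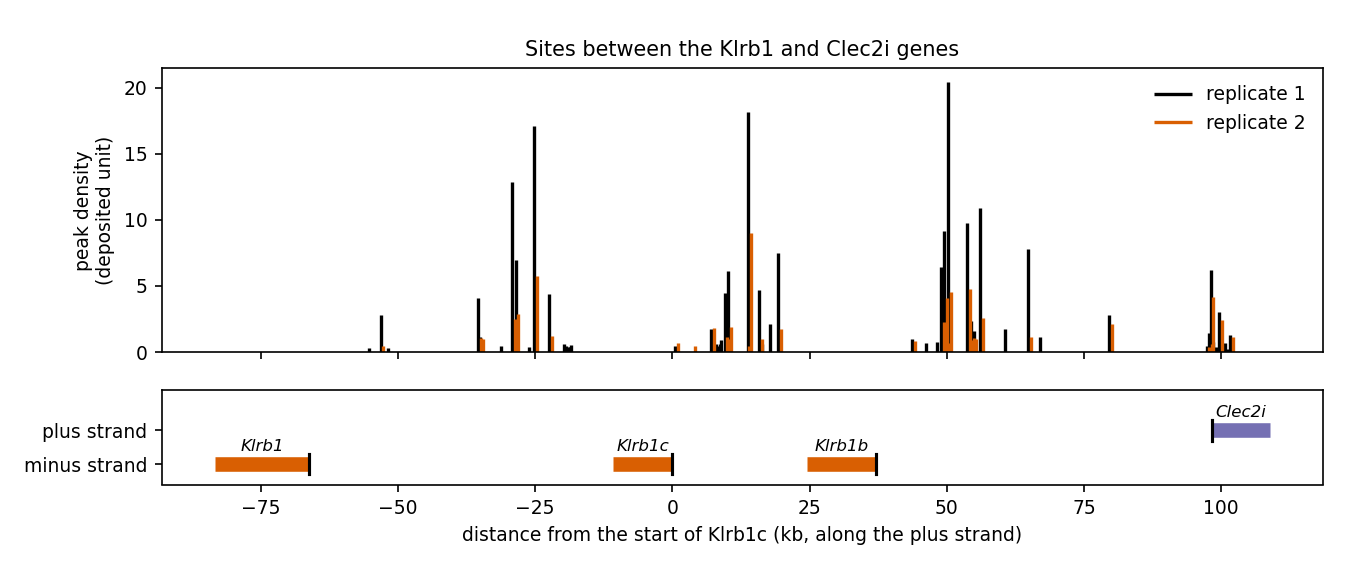
Density of each peak (vertical axis, deposited unit) between the outer ends of Klrb1 and Clec2i by distance from the Klrb1c start (horizontal axis, kb, along the plus strand), black for replicate 1 and orange for replicate 2, with gene bodies below and black ticks at their starts. Clusters stand about 25 kb to the left of the Klrb1c start, about 14 kb to its right and about 50 kb to its right, and the starts of Klrb1, Klrb1c and Klrb1b themselves carry little or no signal.

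Some open sites of the block resembled each other in sequence. The 61 replicate 1 peaks of the block that overlapped a replicate 2 peak were aligned in all 1830 pairs. In 14 pairs, covering 16 sites, at least 80 aligned columns were at least 80% identical, limits set with the data in view. Of these, 11 pairs joined 10 sites whose nearest listed gene was Klrb1c or Klrb1b. In 10 of these 11 pairs both sites held a word of 31 bases found at least 69 times in the genome. Of each site 17.5% to 54.5% was marked as repeat in the reference, and how much of each match lies in such repeats was not measured. In 3 pairs the copies lay 38 to 39 kb apart in the same orientation, 1 on each side of the Klrb1c gene. The pair in which no word of 31 bases had more than 2 copies is shown on the plus strand, the first copy at chr6:128766901-128767056 and the second at chr6:128805225-128805380, with differing bases in capitals.
first copy: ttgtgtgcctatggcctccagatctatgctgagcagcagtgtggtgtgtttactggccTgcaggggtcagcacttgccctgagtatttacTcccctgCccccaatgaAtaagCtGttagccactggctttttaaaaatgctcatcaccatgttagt
second copy: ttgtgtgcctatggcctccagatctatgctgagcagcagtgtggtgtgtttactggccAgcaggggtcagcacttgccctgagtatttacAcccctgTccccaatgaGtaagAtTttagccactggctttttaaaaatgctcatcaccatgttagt
They differed at 6 of 156 bases, were 96.2% identical and lay 22235 bp beyond and 16085 bp before the Klrb1c start. The peak densities were 4.36 and 4.66 in replicate 1 and 1.21 and 0.984 in replicate 2. Of the words in each peak 66.2% occurred once in the reference genome.

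The other pairs at this spacing were alike in identity and less alike in density. The sites chr6:128760721-128761080 and chr6:128799441-128799700 were 95% identical over 240 columns, with densities of 6.98 and 6.11 in replicate 1 and 2.90 and 1.90 in replicate 2. The sites chr6:128760121-128760300 and chr6:128798881-128799080 were 94.9% identical over 176 columns, with 12.8 and 4.44 in replicate 1 and 2.47 and 1.18 in replicate 2. Sites were aligned only if open in both libraries, so that both copies were open follows from the choice. Reads lying wholly in words shared by both copies cannot be assigned to 1 of them, and how the authors treated such reads is not given in the sources used here.

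Most block peaks lay outside exons. In replicate 1, 86 of 132 were intergenic, 36 were in introns and 10 in exons, and in replicate 2 the counts were 43, 20 and 5 of 68. Of the replicate 2 peaks 61 overlapped a replicate 1 peak (89.7%, 95% Wilson interval 80.2 to 94.9), near the 88.8% of its whole list, and 46.2% of replicate 1 peaks overlapped 1 of replicate 2, near 46.9%. The RUNX letters lay within the central 200 bases of 34 of 132 block peaks and 22 of 68 (25.8% and 32.4%), against 19.2% and 19.1% of all peaks. Peaks alike in sequence were each counted, and both copies of the pair printed above hold the RUNX letters. The E-box letters lay in 47.7% and 47.1%, against 52.5% and 53.6%, and the ETS letters in 28.8% and 33.8%, against 33.5% and 36.8%. For TCF and LEF the shares were 17.4% and 14.7%, against 13.1% and 12.8%, and for STAT 6.06% and 5.88%, against 5.04% and 4.74%. For T-box they were 21.2% and 14.7%, against 17.0% and 17.6%, and for AP-1 6.06% and 10.3%, against 5.96% and 5.53%. For GATA they were 6.06% and 2.94%, against 6.55% and 5.79%. For NFIL3 they were 3.03% and 0%, against 1.02% and 0.837%, and for CTCF 6.06% and 2.94%, against 5.46% and 4.25%.

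Most listed genes that act downstream of these receptors were open. Of 15 signalling adaptors and effectors, 13 had a promoter peak in both libraries, against 54.4% of all genes. Tyrobp and Hcst, which encode the adaptors DAP12 and DAP10 of activating receptors, had densities of 2.17 and 2.06 and of 2.87 and 2.38. Cd247, Zap70, Syk, Fyn, Vav1, Plcg2, Pik3r1, Ptpn6, Ptpn11, Inpp5d and Sh2d1a were open too, with Pik3r1 the densest at 29.1 and 14.0 in its list in replicate 1. Fcer1g and Sh2d1b1, which encode the Fc receptor gamma chain and the adaptor EAT-2, had no promoter peak in either library. Many of these genes also serve the T cell receptor, so an open promoter there does not separate NK cells from T cells.

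Of 8 ligand genes, 5 were open in replicate 1 and 4 in replicate 2, or 62.5% and 50%, near the 61.7% and 55.1% of all genes. H2-K1 and H2-D1, classical class I genes and ligands of Ly49 receptors, had peaks at percentiles 90.7 and 80.9 and at 99.2 and 93.9 of each list. H2-T23, which encodes Qa-1, had densities of 4.89 and 2.97. Of the ligands of NKG2D, Ulbp1 was open with 8.97 and 6.00, H60c had a peak of 0.127 in replicate 1 alone, and Raet1d, Raet1e and H60b had none in either library. These ligand genes belong to copied families too, and the median share of single words in their promoters was 61.8%.

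All 13 regulators of NK cell development were open in replicate 1 and 12 in replicate 2, where Ets1 was not, against 61.7% and 55.1% of all genes. Over its gene body with a 10 kb margin Ets1 had 60 and 15 peaks, and its other transcript starts were not examined. Id2 had densities of 23.6 and 15.6, Tcf7 7.84 and 6.78, Bcl11b 15.6 and 8.63, and Prdm1 10.5 and 6.42. Eomes and Tbx21, which encode the T-box factors of mature NK and memory T cells, had lower values, 2.01 and 0.534 and 1.36 and 0.732. Nfil3 had 2.64 and 1.73, Gata3 3.04 and 1.24, Tox 6.87 and 6.38, Runx3 4.97 and 3.31, Zeb2 1.85 and 0.624 and Zbtb16 0.772 and 0.462. In a tissue filled mostly by developing T cells, open promoters of these regulators do not separate NK cells from T cells. Of the NK markers, Prf1, Il2rb, Gzma, Itga2, Fcgr3, Nkg7 and Ifng were open in both libraries.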

How the data were processed

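DNase-seq files of 2 thymus libraries were analysed. Per the labels, positions are on mm10; the aligner, the callers, their versions and the read depth were not given in the sources used. Per the file notes, each library was processed by itself. The deposited peak lists give a signal density per peak, of unstated scaling; the longer of 2 lists per library was used. The deposited FDR file lists runs of bases, each with the authors' q-value, all below 0.05. The deposited footprints carry a score that is the same in every line, so their positions alone were used. Libraries were kept apart; means and SDs are over n = 2, and no test was made.

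Genes were the protein-coding records of GENCODE M21, on GRCm38, the sequence of mm10; 29 of 32 symbols were also in a RefSeq promoter table. A peak belonged to a segment by its midpoint and overlaps needed 1 bp. Words of 31 bases were counted on both strands of the assembled chromosomes. Peak pairs were aligned locally in Biopython 1.88, with Python 3.11.15, numpy 2.4.6 and numba 0.67.0. On simulated data, interval counts differed from bedtools in 0 of 3000 windows. Values are given for genes with a promoter peak in either library, the NKG2 and CD94 family, the 8 densest block peaks by mean percentile, the 3 genes with most peaks within 10 kb and, of other lists, genes open in both libraries or in neither. The genes, lists, motifs and alternatives were chosen with earlier results of these data known.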

Additional observations from a re-analysis of the deposited data

How the results depend on the processing

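Of 52 alternative values, 41 stayed within their limits (1.5 times for counts of genes or peaks, the SD between libraries for the ratio, the Wilson interval for the shared peaks) and 11 moved. Some of the 41 could not have moved. With n = 2, the ratio of either library alone always lies within the SD. Joining genes less than 2 Mb apart gave the same block, and the genes dropped for repeated promoter words were all closed. With only the denser 50% of peaks, 2 genes had a promoter peak in replicate 1, 2 in replicate 2 and 2 in both, a mean of 2: Clec2i and Clec2d. The same choice raised the mean ratio of block to chromosome 6 from 1.08 to 1.28 and lowered the mean peaks of the NKR-P1 and Clec2 segment from 59 to 36.5. Leaving out promoter peaks gave a ratio of 1.19. The Ly49 segment went from a mean of 2.5 peaks to 0 with the denser 50% and to 0 with the shorter deposited list. These segment counts were added after the data were seen. Leaving out 1 library gave 4 to 7 open genes, 4 to 7 with a footprint, 4 to 7 with an FDR base, a ratio of 1.07 to 1.10, 44 to 74 peaks in the NKR-P1 and Clec2 segment and 1 to 4 in the Ly49 segment. A window of 500 bp lost Klrb1c, one of 2 kb added Klrc1, and counting every annotated transcript start added Klrb1f. No paired analysis was possible because the libraries form 1 group and nothing was contrasted. With n = 2 and unknown depth, an absent peak says only that none was called at these depths, and replicate 2, with fewer peaks, sets the lower counts.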

Other observations

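Other genes lie among the receptors. Of the 14 protein-coding genes that start inside the block and are not named Klr or Clec2, 3 had a promoter peak in both libraries, against 54.4% of all protein-coding genes. Cd69 had peaks of density 4.85 and 3.01 and 575 and 399 promoter bases with an FDR below 0.05. Gabarapl1, an autophagy gene, had 2.32 and 0.732 with 1332 and 670 such bases. BC035044, which starts inside Clec2i on the opposite strand, had 1.32 and 1.12 with 1007 and 547.

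The lectin genes between Cd69 and Gabarapl1 had no promoter peak in either library: Clec12a, Clec12b, Clec1b, Clec9a, Clec1a and Olr1, known from myeloid cells, platelets and endothelium. The gap between Clec2d and Klre1 in which they lie nevertheless held 41 and 20 peaks, 105 and 51.1 per Mb. RefSeq calls Gm156 Klrh1 and 4922502D21Rik Clec2m, so the naming rule left out these relatives, and neither had a promoter peak or an FDR base in either library. The 6 pseudogenes of these families in the block, Clec2j, Clec2f, Klrb1-ps1, Klra11-ps, Klra14-ps and Klra13-ps, had 0 peaks at their starts and 0 in their bodies in both libraries.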
